A study of Mus musculus with 15 samples.

Results

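The activity-induced immediate early genes described here are 10 genes: Fos, Fosb, Junb, Arc, Egr1, Egr2, Egr3, Egr4, Nr4a1 and Npas4. They were taken from the deposited expression table by gene symbol, with the brightest probe set that carried only that symbol kept for each gene. Each of the 10 had exactly 1 such probe set, and together they are 10 of the 19938 genes measured. The study profiled RNA of the right hippocampus from male C57BL/6 mouse pups at postnatal day 9, on Affymetrix Mouse Gene 1.0 ST microarrays whose probes lie along the exons of a gene. There were 15 arrays, 3 for each of 5 groups treated from day 5 to day 9, with birth counted as day 1 and no dam keeping more than 7 pups. The untreated controls are called CC. Pups under mild stress were given saline vehicle (MSS) or the opioid morphine (MSM), and pups under severe stress were given saline vehicle (SSS) or morphine (SSM). All 5 groups thus share strain, sex, age, tissue and side, and CC differs from the other groups in both stress and injection. What the stress consisted of, the dose of morphine, the time between the last treatment and tissue collection, and the litter of each pup are stated in none of the sources used here. The p-values below therefore measure the spread between arrays, some of which may come from pups of 1 litter.

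Immediate early genes are transcribed within minutes of a stimulus from factors already present in the cell, without new protein synthesis. In hippocampal neurons calcium entry through synaptic receptors and voltage-gated channels acts through kinases on the factors CREB, SRF and MEF2, which sit at the promoters and enhancers of these genes. Most of their protein products are themselves transcription factors that switch on a later set of genes, whereas Arc acts directly at the synapse. Their RNA is short-lived, so its level at one time reflects recent stimulation.

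The promoters of members whose RNA levels are followed below are shown because the letters TGACG, the core of the cAMP response element to which CREB binds, recur in them. Of the 10 members, 7 were found in the RefSeq promoter table for build GRCm38.p6, in 11 windows of 300 bases that run from 250 bases before a transcription start to 50 after it; Arc, Egr1 and Egr3 were not among them. The bases before the start are printed 5′ to 3′ along the gene for Fos, for the third listed start of Egr2, and for Egr4, Nr4a1 and Npas4. Capitals mark TGACG on either strand (CGTCA where it lies on the other strand) and, in Egr2, the CArG box, the site that SRF recognises.
Fos, chr12:85473640-85473889, plus strand: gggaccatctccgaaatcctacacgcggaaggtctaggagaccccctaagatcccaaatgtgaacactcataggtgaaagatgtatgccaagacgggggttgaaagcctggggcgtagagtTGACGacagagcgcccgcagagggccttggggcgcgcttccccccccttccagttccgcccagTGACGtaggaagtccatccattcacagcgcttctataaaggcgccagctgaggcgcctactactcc
Egr2, chr10:67537619-67537868, plus strand: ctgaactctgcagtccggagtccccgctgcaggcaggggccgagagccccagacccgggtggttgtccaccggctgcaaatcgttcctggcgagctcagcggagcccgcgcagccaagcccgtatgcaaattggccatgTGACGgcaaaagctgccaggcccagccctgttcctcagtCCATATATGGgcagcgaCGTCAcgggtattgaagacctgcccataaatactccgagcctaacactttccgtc
Egr4, chr6:85513590-85513839, minus strand: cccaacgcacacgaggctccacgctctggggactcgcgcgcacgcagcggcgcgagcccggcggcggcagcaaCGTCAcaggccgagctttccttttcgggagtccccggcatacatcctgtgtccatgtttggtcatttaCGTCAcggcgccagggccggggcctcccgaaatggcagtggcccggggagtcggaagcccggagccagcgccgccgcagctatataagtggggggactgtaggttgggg
Nr4a1, chr15:101266596-101266845, plus strand: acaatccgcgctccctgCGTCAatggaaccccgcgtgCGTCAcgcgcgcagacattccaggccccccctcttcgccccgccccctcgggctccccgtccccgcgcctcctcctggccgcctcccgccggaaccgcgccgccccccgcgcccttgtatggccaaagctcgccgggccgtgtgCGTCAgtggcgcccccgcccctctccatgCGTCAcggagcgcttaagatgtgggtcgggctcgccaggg
Npas4, chr19:4989972-4990221, minus strand: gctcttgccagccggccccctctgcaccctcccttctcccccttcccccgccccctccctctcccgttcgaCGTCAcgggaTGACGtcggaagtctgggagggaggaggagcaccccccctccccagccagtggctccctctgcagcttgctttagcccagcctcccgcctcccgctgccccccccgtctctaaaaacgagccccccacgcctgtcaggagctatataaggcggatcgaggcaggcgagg

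TGACG on either strand was present in 9 of the 11 member windows and in at least 1 window of all 7 genes, Fos, Fosb, Junb, Egr2, Egr4, Nr4a1 and Npas4. Over all promoters of that length in the table it was present in 20.8% of 32851 windows and 23.0% of 27025 genes. The Nr4a1 window held 4 such matches, and the Fos, Egr4 and Npas4 windows held 2 each. The full palindrome TGACGTCA, which contains TGACG, was in 0 of the 11 windows and in 1.79% of all windows. The CArG box was in 4 of the 5 Egr2 windows, which overlap one another in part, and in no window of the other 6 genes, against 1.63% of all windows. The letters GCGNGGGCG, which EGR proteins bind, were in the windows of Fosb and Nr4a1 and in 5.55% of all windows. The letters TATAAA were in the windows of Fos and Junb and in 13.6% of all windows, and TGANTCA, the AP-1 motif, was in none of the 11 and in 7.81% of all windows. All motifs were searched on both strands, and a match describes only the letters of these windows.

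All expression values are log2 intensities made with RMA, so a difference of 1 is a doubling, group values are means ± SD over 3 arrays, and differences carry the standard error (SE) of the fit. The hippocampal markers Slc17a7, Neurod6 and Prox1 were measured on every array, from 10.21 to 11.39, from 7.37 to 9.62 and from 7.81 to 9.10, and no listed marker was at 0 on any array. Before any comparison, 6 of the 15 arrays stood apart. On MSM replicate 3 the mean of 12 thalamus markers was 8.26, against 6.82 to 7.18 on the other 14 arrays, with 10 of the 12 highest there, and the mean of 12 hippocampal glutamatergic neuron markers was 7.88, the lowest of 15. On SSM replicate 1 the mean of 13 striatum markers was 8.80, with all 13 highest there, and the next arrays were CC replicate 1 at 7.76 and MSM replicate 2 at 7.38; its glutamatergic neuron mean was 8.43, the second lowest, against 8.71 to 9.02 on the 13 other arrays. On SSM replicate 3 the median gene lay 0.15 above its mean over all arrays, against -0.02 to -0.0031 on the other 14. On MSS replicates 1 and 2 and SSS replicate 2 the mean of 12 choroid plexus markers was 5.54, 5.45 and 5.45, against 6.44 to 7.51 on the other 12 arrays. Ttr, the transthyretin that choroid plexus secretes, measured 9.17, 8.99 and 8.87 on these 3 and 12.65 to 13.24 on the others. Some results are also given after median centring of each array. Shares of all genes with an unadjusted p under 0.05 are given for the fit with all 15 arrays only. For some comparisons results are also given without MSM replicate 3, SSM replicate 1 or both, or without the 3 arrays low in choroid plexus markers. Leaving out those 3 was an alternative chosen after seeing the data, and the 1 MSS array that remains is assumed to vary like the other groups. The SS number in the sample titles, whose meaning is not stated, was 12 on all CC arrays, 11 on all mild stress arrays and 8 to 10 on the severe stress arrays. It cannot be told apart from the group in the comparisons with CC and in those of severe with mild stress. In bulk tissue, fewer cells of a type and less RNA per cell cannot be told apart.

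The 10 genes differed little between the 5 groups: the highest and lowest group means lay 0.09 apart for Fos and at most 0.36 apart, for Egr3. None of the 10 passed the F-test over the 5 groups in limma, with adjusted p from 0.743 for Egr3 to 0.990 for Fos, and 0% of the 19938 genes passed it. Without adjustment, 0 of the 10 had a p under 0.05, against 7.24% of all genes. MSM had the lowest group mean for 7 of the 10, Junb, Arc, Egr1, Egr2, Egr3, Egr4 and Nr4a1. For no gene did neighbours in the order of the 5 group means lie more than 2 SE of a difference apart. The 10 were all above the usual level of olfactory receptor genes, a reference chosen after the values were seen and mostly not expressed in brain, whose median over 1027 genes was 3.93. Fosb, with a mean of 5.11 over all arrays, lay closest to that reference, and 2.24% of the olfactory receptor genes lay at or above it. Fosb, Egr2, Fos, Npas4 and Junb were dimmer than the median gene, with 34.6%, 40.5%, 41.2%, 41.4% and 47.0% of all genes below them. For the other members that share was from 54.4% for Egr4 to 65.5% for Nr4a1.

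**Figure D1:**
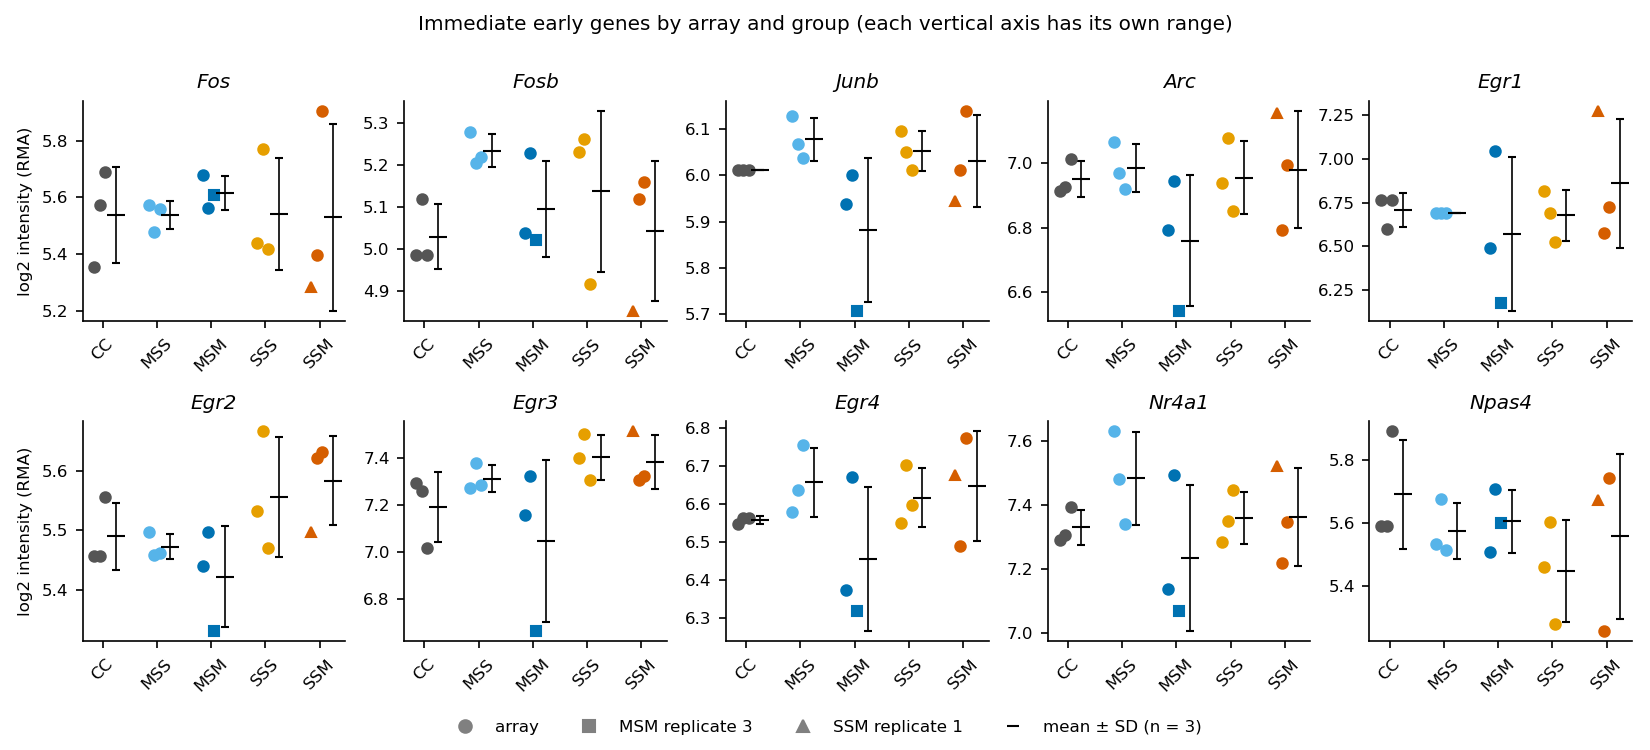
Log2 intensity (RMA, vertical axis, own range in each panel) of the 10 genes on each of 15 arrays by group (horizontal axis), with the mean and SD of 3 arrays beside the points; a square marks MSM replicate 3 and a triangle SSM replicate 1. MSM replicate 3 is the lowest of 15 for Junb, Arc, Egr1, Egr2, Egr3, Egr4 and Nr4a1, and SSM replicate 1 the highest for Arc, Egr1 and Egr3.

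Fos, Fosb and Junb encode subunits of the dimeric transcription factor AP-1. Fos measured 5.36, 5.57 and 5.69 in CC, 5.57, 5.48 and 5.56 in MSS, 5.68, 5.56 and 5.61 in MSM, 5.44, 5.77 and 5.42 on the SSS arrays, and 5.28, 5.40 and 5.91 in SSM. The lowest and the highest of the 15 values both belonged to SSM, and every pair of groups overlapped. Its group means were 5.54 ± 0.17, 5.54 ± 0.05, 5.62 ± 0.06, 5.54 ± 0.20 and 5.53 ± 0.33 in the same order, so the spread within SSM exceeded every difference between means. Fosb, which also yields the truncated and long-lived protein ΔFosB, measured 4.99, 5.12 and 4.99 in CC, 5.28, 5.20 and 5.22 in MSS, 5.04, 5.23 and 5.02 in MSM, 5.23, 5.26 and 4.92 on the SSS arrays, and 4.85, 5.12 and 5.16 in SSM. The 3 MSS arrays all lay above the 3 CC arrays, and the other groups overlapped CC. The means of Fosb were 5.03 ± 0.08 in CC and 5.23 ± 0.04 in MSS, a difference of 0.20 ± 0.10 (SE).

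Junb measured 6.01 on all 3 CC arrays, 6.13, 6.07 and 6.04 in MSS, 5.94, 6.00 and 5.71 in MSM, 6.10, 6.05 and 6.01 on the SSS arrays, and 5.94, 6.01 and 6.14 in SSM. All MSS arrays lay above CC and all MSM arrays below it. The deposited Junb value was identical on the 3 CC arrays, SSS replicate 3 and SSM replicate 2, so the SD of CC is 0 and the separation from CC rests on the shared value. Such repeats were common in the table: 47.9% of genes had an equal value on at least 2 arrays, and 1.38% had 3 equal values within a group. The mean of Junb was 5.88 ± 0.16 in MSM and 6.08 ± 0.05 in MSS. Its residual SD within groups, 0.09, exceeded that of only 36.1% of all genes.

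The 4 Egr genes encode zinc-finger transcription factors with closely similar DNA-binding domains. Egr1, also called Zif268 and used as a marker of synaptic plasticity, measured 6.76, 6.60 and 6.77 in CC, 6.69 on all 3 MSS arrays, 6.49, 7.05 and 6.18 in MSM, 6.81, 6.69 and 6.53 on the SSS arrays, and 7.27, 6.58 and 6.73 in SSM. Both the lowest value, on MSM replicate 3, and the 2 highest, on SSM replicate 1 and MSM replicate 2, came from morphine groups. Its mean was 6.57 ± 0.44 in MSM and 6.86 ± 0.37 in SSM, against 6.71 ± 0.10 in CC and 6.68 ± 0.14 in SSS, and the equal deposited values in MSS leave it an SD of 0. The residual SD of Egr1, 0.27, was larger than that of 97.2% of all genes and was still larger than that of 94.2% without MSM replicate 3 and SSM replicate 1. The striatum marker mean was also high on the 2 arrays where Egr1 was highest, at 8.80 on SSM replicate 1 and 7.38 on MSM replicate 2, while CC replicate 1, at 7.76, had an Egr1 value of 6.76; the part of striatal RNA in the Egr1 values was not tested.

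Egr2, known as Krox20 and also needed for Schwann cell myelination, had the smallest spread of the family. It measured 5.46, 5.46 and 5.56 in CC, 5.50, 5.46 and 5.46 in MSS, 5.44, 5.50 and 5.33 in MSM, 5.53, 5.67 and 5.47 on the SSS arrays, and 5.50, 5.62 and 5.63 in SSM. The 3 highest values lay in the severe stress groups, and each pair of groups overlapped or shared a value. The mean of Egr2 was 5.42 ± 0.08 in MSM and 5.47 ± 0.02 in MSS, against 5.56 ± 0.10 in SSS and 5.58 ± 0.08 in SSM. Egr3, which like Egr1 is induced by neuronal activity, measured 7.29, 7.26 and 7.02 in CC, 7.27, 7.38 and 7.28 in MSS, 7.16, 7.32 and 6.66 in MSM, 7.40, 7.50 and 7.31 on the SSS arrays, and 7.51, 7.30 and 7.33 in SSM. All SSS and all SSM arrays lay above the 3 CC arrays. The mean of Egr3 was 7.19 ± 0.15 in CC, 7.40 ± 0.10 in SSS, 7.38 ± 0.12 in SSM, 7.31 ± 0.06 in MSS and 7.05 ± 0.34 in MSM, where MSM replicate 3 was at 6.66.

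Egr4, the fourth of the family, measured 6.55, 6.56 and 6.56 in CC, 6.58, 6.64 and 6.76 in MSS, 6.37, 6.67 and 6.32 in MSM, 6.55, 6.70 and 6.60 on the SSS arrays, and 6.68, 6.49 and 6.77 in SSM. The 3 CC values were nearly equal, and the 3 MSS values all lay above them. The mean was 6.56 ± 0.01 in CC, 6.66 ± 0.09 in MSS and 6.45 ± 0.19 in MSM, where MSM replicates 1 and 3 were the 2 lowest of the 15 arrays.

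Nr4a1, or Nur77, is an orphan nuclear receptor that acts as a transcription factor without a known natural ligand. It measured 7.29, 7.31 and 7.39 in CC, 7.63, 7.48 and 7.34 in MSS, 7.14, 7.49 and 7.07 in MSM, 7.28, 7.35 and 7.45 on the SSS arrays, and 7.52, 7.22 and 7.35 in SSM. The highest value was in MSS and the 2 lowest in MSM, where the third array was among the 3 highest of all. Its mean was 7.48 ± 0.15 in MSS and 7.23 ± 0.23 in MSM, and 7.33 ± 0.05 in CC. Npas4, a neuron-specific factor that responds to calcium entry and shapes inhibitory synapses, measured 5.59, 5.59 and 5.89 in CC, 5.53, 5.68 and 5.51 in MSS, 5.51, 5.71 and 5.60 in MSM, 5.46, 5.60 and 5.28 on the SSS arrays, and 5.67, 5.26 and 5.74 in SSM. It was the single member with its highest group mean in CC, 5.69 ± 0.17, and its lowest mean was 5.45 ± 0.16 in SSS. These groups overlapped, and the 5.89 of CC replicate 3 was the highest value of all.

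Arc encodes a protein of dendrites that promotes removal of AMPA receptors from synapses. It measured 6.91, 6.93 and 7.01 in CC, 7.07, 6.97 and 6.92 in MSS, 6.79, 6.94 and 6.54 in MSM, 6.94, 7.08 and 6.85 on the SSS arrays, and 7.16, 6.79 and 6.99 in SSM. MSM replicate 3 had the lowest and SSM replicate 1 the highest Arc value. The mean was 6.76 ± 0.20 in MSM and between 6.95 and 6.99 in the other 4 groups.

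Each treated group was compared with the untreated controls; these 4 comparisons share the 3 CC arrays. None of the 10 genes passed an adjusted p of 0.05 in limma in any of them, and neither did any of the 19938 genes (0% called in each). Without adjustment, too, 0 of the 10 had a p under 0.05, against 2.22% of all genes for MSS, 2.76% for MSM, 2.03% for SSS and 9.01% for SSM. In MSS 6 of the 10 lay above CC and 4 below, with a median difference of 0.05; the largest was that of Fosb, 0.20 ± 0.10 (SE), and Fosb, Junb and Egr4 did not overlap between the groups, as was so for 9.41% of all genes. All 12 choroid plexus markers were lower in MSS than in CC, with a median of -0.64, and their part in these differences was not tested; without the 3 arrays low in them 6 members lay above CC and 4 below, with a median of 0.01. In MSM 2 lay above and 8 below, with a median of -0.10 and the largest for Arc, -0.19 ± 0.10, and Junb alone did not overlap, against 7.84% of all genes. Without MSM replicate 3 the median was -0.02, with 4 above and 6 below.

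In SSS 8 of the 10 lay above CC and 2 below, with a median of 0.04. Npas4 was 0.24 ± 0.12 (SE) lower and Egr3 0.21 ± 0.13 higher, and Egr3 alone did not overlap, against 9.36% of all genes. Without the 3 arrays low in choroid plexus markers 6 lay above and 4 below, with a median of 0.01, and Npas4 was 0.32 ± 0.14 lower. In SSM 8 again lay above CC, with a median of 0.03, and Egr3, at 0.19 ± 0.13, was the only one not to overlap, against 11.9% of all genes. The median over all genes was itself 0.06 in that comparison and from -0.0024 to 0.0042 in the other 3. After median centring 4 of the 10 lay above CC and 6 below in SSM, with a median of -0.03. Over the mean of all 4 treated groups 7 lay above CC and 3 below, with a median of 0.02, and the median over all genes was 0.01. Without the 3 arrays low in choroid plexus markers 4 lay above and 6 below, with a median of -0.0058. None passed in limma with or without adjustment, against 0% and 1.86% of all genes. The 95% interval of that difference was from -0.21 to 0.14 for Arc, from -0.21 to 0.25 for Fos and from -0.13 to 0.32 for Egr3.

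Morphine was compared with saline at each level of stress. Under mild stress 8 of the 10 genes were lower with morphine and 2, Fos and Npas4, higher, with a median difference of -0.17, while the median over all genes was 0.0001. None passed the adjusted test in limma, nor did any other gene (0% called). The 4 genes Nr4a1, Arc, Egr4 and Junb had an unadjusted p under 0.05, against 2.57% of all genes. The differences were, for Nr4a1, -0.25 ± 0.11 (SE), for Arc -0.23 ± 0.10, for Egr4 -0.20 ± 0.09 and for Junb -0.20 ± 0.07, all with an adjusted limma p of 1.00. Junb was the only member whose groups did not overlap, against 7.35% of all genes. Egr3 differed by -0.26 ± 0.13 and Egr1 by -0.12 ± 0.19, Fos by 0.08 ± 0.14 and Npas4 by 0.03 ± 0.12.

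The negative differences given above were smaller in size without MSM replicate 3, whose thalamus markers were high and glutamatergic neuron markers low. Without it the median was -0.09 and 0 of the 10 had an unadjusted p under 0.05, the difference of Arc was -0.12 ± 0.10 (SE), that of Egr3 -0.07 ± 0.10, that of Egr4 -0.13 ± 0.10, that of Junb -0.11 ± 0.07 and that of Nr4a1 -0.17 ± 0.11, and Egr1 turned to 0.08 ± 0.18. The count of 4 also became 6 without MSM replicate 2, 1 without MSS replicate 1 or 2, and 2 without CC replicate 1, 2 or 3, MSM replicate 1 or SSS replicate 1. It was 1 without the 3 arrays low in choroid plexus markers, Egr4 at -0.30 ± 0.14, and the median was -0.12. Markers of other tissue moved with this comparison: 12 of 12 choroid plexus markers were higher in MSM than in MSS, with a median of 1.06, as were 12 of 13 myelin and oligodendrocyte markers, with a median of 0.40, and 10 of 12 thalamus markers, with a median of 0.35. Of the 12 glutamatergic neuron markers 11 were lower, with a median of -0.35. None of these passed the adjusted limma test, and their part in the low values was not tested.

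Under severe stress 6 of the 10 were higher with morphine and 4 lower, with a median of 0.01, and the largest difference was that of Egr1, 0.18 ± 0.19 (SE). That difference of Egr1 turned negative without MSM replicate 3 and SSM replicate 1. Without the 3 arrays low in choroid plexus markers 7 were higher and 3 lower, with a median of 0.08. None passed the adjusted test in limma, nor did any other gene (0% called), and without adjustment 0 of the 10 did, against 9.37% of all genes; no member's groups were apart, against 12.9% of all genes. The median over all genes was 0.06 here, and after median centring 2 of the 10 were higher and 8 lower, with a median of -0.05. In SSM against SSS 13 of 13 striatum markers were higher, with a median of 0.85, as were 13 of 13 myelin and oligodendrocyte markers, with a median of 0.50. Of the 12 microglia markers 12 were higher, and of the 12 glutamatergic neuron markers 10 were lower. The part of these markers was not tested. Averaged over both levels of stress 7 of the 10 were lower with morphine, with a median of -0.09, while the median over all genes was 0.03. Junb differed by -0.11 ± 0.05, Nr4a1 by -0.12 ± 0.08 and Egr3 by -0.14 ± 0.09. With or without adjustment 0 of the 10 passed, against 0% and 7.64% of all genes. After median centring 9 were lower, with a median of -0.14, and after quantile normalization 8 were, also with a median of -0.14. In each, 4 members had an unadjusted p under 0.05 in limma, with no share of all genes set beside that count. The smallest adjusted p of a member was 0.702 and 0.683. Without the 3 arrays low in choroid plexus markers 6 were lower, with a median of -0.05, and the count was 0. In this average 12 of 12 choroid plexus, 13 of 13 myelin and 13 of 13 striatum markers were higher with morphine. So were 11 of 12 thalamus and 12 of 12 microglia markers, while 11 of 12 glutamatergic neuron markers were lower. The part of these markers was not tested. The difference between the effects of morphine under severe and under mild stress was positive for 9 of the 10, with a median of 0.20, while the median over all genes was 0.06. Its test was passed by none with or without adjustment, against 0% and 3.65% of all genes. For Arc this interaction was 0.25 ± 0.15, with a 95% interval from -0.06 to 0.56, and for Egr1 0.30 ± 0.26. Without MSM replicate 3 the median interaction was 0.08 and without both that array and SSM replicate 1 it was 0.06, with 8 of 10 positive. Without the 3 arrays low in choroid plexus markers it was 0.13, with 10 of 10 positive and none passing.

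**Figure D2:**
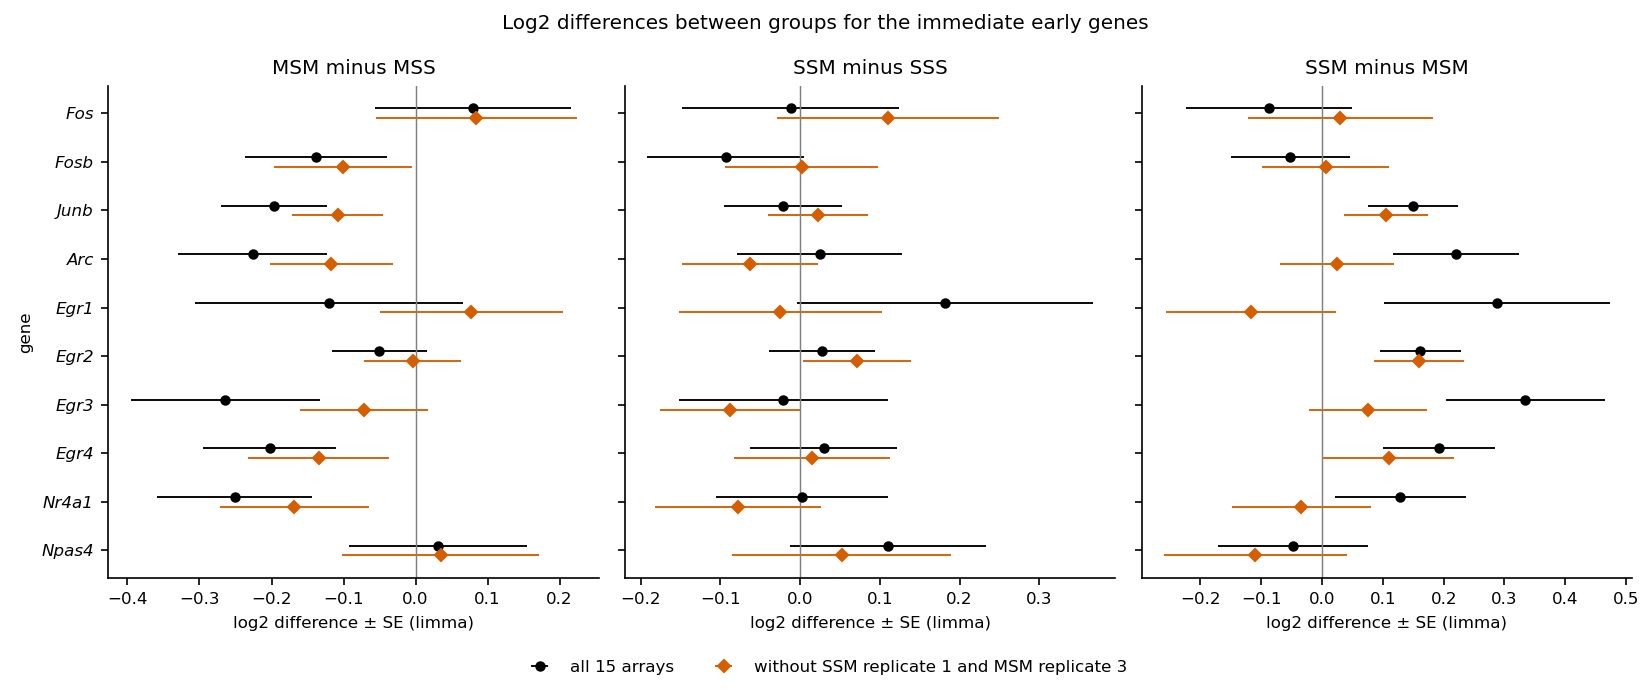
Log2 difference ± SE (limma, horizontal axis) of each of the 10 genes (vertical axis) for MSM minus MSS, SSM minus SSS and SSM minus MSM, with all 15 arrays (black circles) and without SSM replicate 1 and MSM replicate 3 (orange diamonds). In MSM minus MSS Arc moves from -0.23 to -0.12 and Egr1 from -0.12 to 0.08 without those arrays, and in SSM minus MSM Egr2 stays at 0.16.

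Severe stress was compared with mild stress for each injection. With saline 3 of the 10 were higher under severe stress and 7 lower, with a median of -0.03, and the largest difference was that of Npas4, -0.13 ± 0.12 (SE). None passed in limma with or without adjustment, against 0% and 2.85% of all genes, and no member's groups were apart, against 10.9%. All 12 choroid plexus markers were higher in SSS than in MSS, with a median of 0.60, and their part was not tested. The arrays low in these markers all lie in MSS and SSS, and this comparison is not given without them. With morphine 7 were higher and 3 lower, with a median of 0.16, while the median over all genes was 0.06. Egr3 was 0.33 ± 0.13 higher and Egr2 0.16 ± 0.07 higher, the 2 members with an unadjusted p under 0.05 in limma against 14.3% of all genes, and their adjusted p was 0.288 and 0.302. No gene passed the adjusted test (0% called), and no member's groups were apart, against 14.1% of all genes.

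The difference of Egr2 was again 0.16 ± 0.07 (SE) when MSM replicate 3 and SSM replicate 1 were both left out, whereas that of Egr3 became 0.08 ± 0.10, that of Arc 0.02 ± 0.09 instead of 0.22 ± 0.10, and that of Egr1 -0.12 ± 0.14 instead of 0.29 ± 0.19. The count of 2 with an unadjusted p under 0.05 became 0 without MSM replicate 3, 7 without MSM replicate 2 and 4 without SSM replicate 2, and it was 0 after median centring. Averaged over saline and morphine, Egr3 was 0.21 ± 0.09 and Egr2 0.12 ± 0.05 higher under severe stress, with adjusted p of 0.383 and 0.325 in limma, and the 95% interval of the other 8 held 0. These 2 had an unadjusted p under 0.05, against 12.1% of all genes, and 0 of the 10 passed with adjustment, against 0.01% of all genes. That count of 2 was 4 without MSM replicate 2, 1 without SSM replicate 1, SSS replicate 1 or MSS replicate 1 or 3, 0 without MSM replicate 3 or SSS replicate 2, 0 without the 3 arrays low in choroid plexus markers, 0 after median centring and 1 after quantile normalization.

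The same values were then read array by array. MSM replicate 3 had the lowest value of the 15 arrays for 7 of the 10 genes, all but Fos, Fosb and Npas4, and was the lowest array for 16.1% of all genes. The mean of the 10 was 6.00 on that array and between 6.16 and 6.37 on the others. SSM replicate 1 was highest for Arc, Egr1 and Egr3 and lowest for Fos and Fosb, so these genes lay at opposite ends of their ranges there. SSM replicate 3 was highest for 3 of the 10, Fos, Junb and Egr4, but it was also the highest array for 48.8% of all genes.

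**Figure D3:**
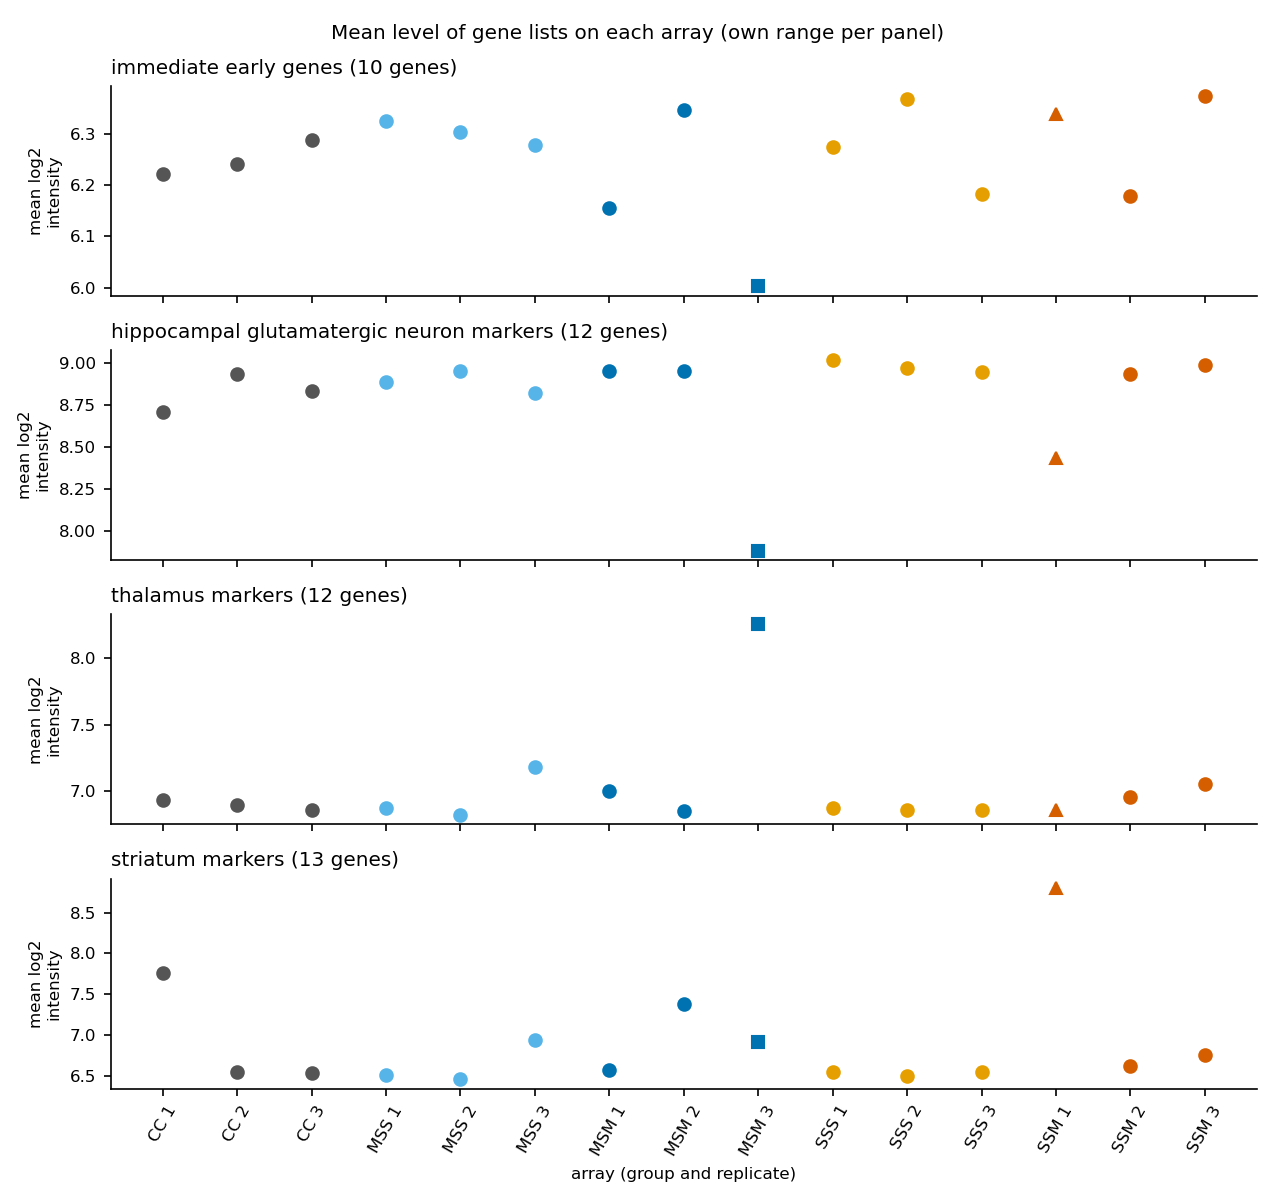
Mean log2 intensity (vertical axis, own range per panel) of the 10 immediate early genes and of markers of hippocampal glutamatergic neurons (12 genes), thalamus (12) and striatum (13) on each of the 15 arrays (horizontal axis); a square marks MSM replicate 3 and a triangle SSM replicate 1. MSM replicate 3 has the lowest mean of the immediate early genes, 6.00, and of the neuron markers, 7.88, with the highest thalamus mean, 8.26, while SSM replicate 1 has the highest striatum mean, 8.80.

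Over the 15 arrays 40 of the 45 pairs of members had a Pearson r above 0, with a median of 0.38 and a range from -0.31 to 0.80. In all, 10 pairs had an adjusted p under 0.05 in two-sided permutation tests with adjustment over the 45 pairs, and 19 had an unadjusted p under 0.05. Pairs among all genes were not counted in the same way, so these counts have no share to be set against. By Spearman's rho 0 pairs passed with adjustment (smallest adjusted p 0.0603) and 12 without. Arc had the 4 highest r. Arc and Egr1 had r = 0.80 (permutation p = 0.00096, adjusted 0.0202) and rho = 0.65 (permutation p = 0.00991, adjusted 0.109). Arc and Nr4a1 had r = 0.78 (permutation p = 0.00057, adjusted 0.0202) and rho = 0.76 (permutation p = 0.00134, adjusted 0.0603). Arc and Egr3 had r = 0.76 (permutation p = 0.00419, adjusted 0.0384) and rho = 0.52 (permutation p = 0.0485, adjusted 0.184). Arc and Egr4 had r = 0.75 (permutation p = 0.00135, adjusted 0.0202) and rho = 0.67 (permutation p = 0.00777, adjusted 0.109).

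The other 6 pairs that passed were Egr3 with Egr4 (r = 0.70), Egr1 with Egr3 (0.69), Junb with Egr4 (0.67), Egr1 with Nr4a1 (0.65), Junb with Egr2 (0.64) and Egr4 with Nr4a1 (0.64), with rho between 0.48 and 0.65. Their permutation p was 0.00427 to 0.0111 for r (adjusted 0.0384 to 0.0499) and 0.00902 to 0.0691 for rho. Without the 2 arrays farthest from the median of the first gene of each pair, their r was 0.15 to 0.54. No pair that passed held Fos, Fosb or Npas4. The mean r of a gene with the other 9 was highest for Arc, 0.54, and Egr4, 0.52, and lowest for Fos, 0.08, Npas4, 0.18, and Fosb, 0.23. Fos and Egr1 had the lowest r of all, -0.31.

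The count of pairs that passed rested on few arrays. The 2 arrays farthest from the median of Arc were MSM replicate 3 and SSM replicate 1, and without them r was 0.45 for Arc and Egr1, 0.63 for Arc and Nr4a1, 0.22 for Arc and Egr3 and 0.58 for Arc and Egr4; 0 of the 45 pairs then passed with adjustment, with 41 above 0 and a median of 0.39. The count of 10 was 0 without MSM replicate 3 alone or MSM replicate 1 alone, 2 without SSS replicate 2, 3 without CC replicate 2 or MSS replicate 2, 5 without CC replicate 1, and 6 without SSM replicate 3, SSS replicate 1 or MSM replicate 2. When each value was replaced by its deviation from the mean of its group, with permutation only within groups, 41 of the 45 pairs were above 0 with a median r of 0.44, and Arc and Egr1 reached 0.85, but 0 pairs passed (smallest adjusted p 0.25). Leaving out SSM replicate 1 and MSM replicate 3 from these deviations was added after seeing the data. Then 44 of the 45 pairs were above 0, with a median r of 0.49, and 0 passed. Only 864 permutations within groups exist there, too few for a single pair to pass the adjustment by itself. After median centring 36 of the 45 pairs were above 0, with a median r of 0.37, and 15 pairs passed by r and 3 by rho. With the 3 arrays low in choroid plexus markers left out, 8 passed by r and 2 by rho.

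**Figure D4:**
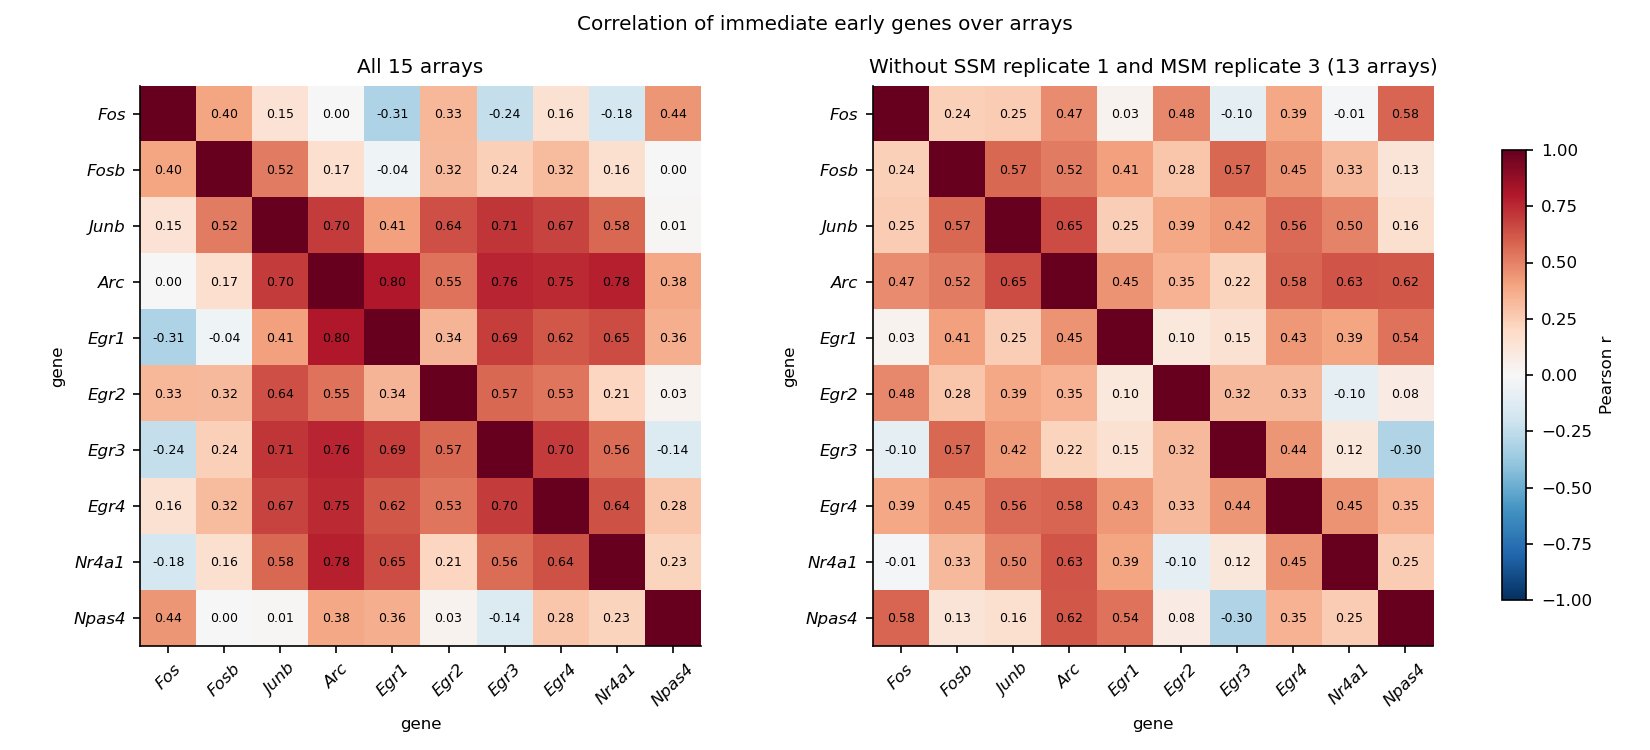
Pearson r between each pair of the 10 genes (both axes) over all 15 arrays (left) and over the 13 arrays without SSM replicate 1 and MSM replicate 3 (right), with colour from -1 (blue) to 1 (red). Arc, Egr1, Egr3, Egr4 and Nr4a1 have high r with one another on the left, as has Junb with Arc, Egr3 and Egr4, for example 0.80 for Arc and Egr1, which is 0.45 on the right.

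**Figure D5:**
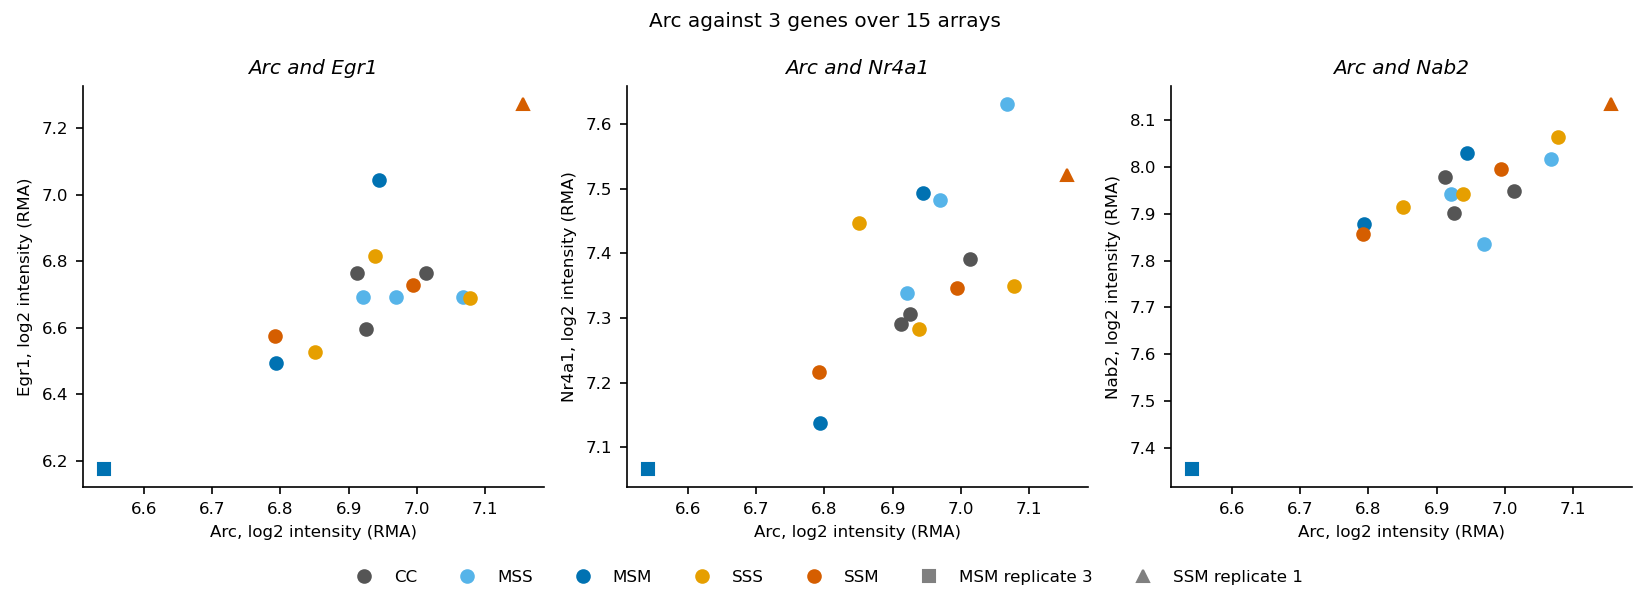
Log2 intensity (RMA) of Egr1, Nr4a1 and Nab2 (vertical axes) against that of Arc (horizontal axis) on each of 15 arrays, coloured by group; a square marks MSM replicate 3 and a triangle SSM replicate 1. MSM replicate 3 is the lowest point of all 3 panels, and with Egr1 the r of 0.80 is 0.45 without the 2 marked arrays.

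The genes outside the 10 whose values followed them most closely were ranked by Pearson r over the 15 arrays of median-centred values, as a description with no test, since they were chosen for a high r among all genes and share the arrays. Averaged over the 10 members, r was 0.57 for Rtp1, 0.56 for S100a2, 0.55 for Map4k5, 0.54 for Nab2, 0.53 for Tlr12 and 0.52 for Rnf150. Nab2 encodes a corepressor of EGR proteins and is itself a known EGR target. It was the gene closest to Arc, with r = 0.89, and 0.75 without MSM replicate 3 and SSM replicate 1. For the other members the closest genes were Kash5 for Fos (r = 0.86), Tas2r103 for Fosb (0.90), Pou6f1 for Junb (0.95), Rgs20 for Egr1 (0.91), Wdr81 for Egr2 (0.91), Zc3h4 for Egr3 (0.92), Rgs1 for Egr4 (0.81), Gps2 for Nr4a1 (0.89) and Cyp4f13 for Npas4 (0.86). When members were ranked too, the member nearest to Nr4a1 was Arc, at rank 2 of 19937 genes. Arc was also the nearest member to Egr4, at rank 19, to Egr1, at rank 54, to Egr3, at rank 175, and to Npas4, at rank 1495, while the nearest to Arc itself was Nr4a1, at rank 22. The nearest member stood at rank 562 for Egr2, 628 for Junb, 1069 for Fosb and 3048 for Fos. The median rank of the 9 others for likeness to Arc was 136, and 770 without MSM replicate 3 and SSM replicate 1.

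The 10 were set beside 3 further lists of their pathway: 37 other immediate early and early-response genes, 16 late genes that neuronal activity induces, and 30 genes of the signalling and transcription upstream. In none of the 12 comparisons did any of these genes pass the adjusted limma test in either direction, and the smallest adjusted p was 0.178, 0.164 and 0.194 for the 3 lists. In MSM against MSS, where 8 of the 10 members were lower, 17 of the 37 other early genes were lower and 20 higher, with a median of 0.02, as were 7 and 9 of the 16 late genes, with a median of 0.01. Of the 30 upstream genes 22 were lower and 8 higher there, with a median of -0.04. In the mean of severe against mild stress 27 of the 37 other early genes were higher, with a median of 0.08, beside 0.07 for the members and 0.04 over all genes.

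Among these lists the smallest p-values of the F-test over 5 groups belonged to Klf10, Rheb, Cited2 and Ccn1 of the early genes, Sst, Tac1, Nptx2 and Rasgrp1 of the late genes, and Srf, Crtc2, Rps6ka5 and Mef2a of the upstream genes, with adjusted p of at least 0.565 in limma. Klf10, a Krüppel-like transcription factor, averaged 6.39 ± 0.11 in CC, 6.40 ± 0.11 in MSS, 6.20 ± 0.26 in MSM, 6.62 ± 0.11 with SSS and 6.60 ± 0.18 with SSM. The order of its group means was that of Egr3, but parts of it rest on small gaps. Klf10 differed by 0.0031 ± 0.12 (SE) in MSS minus CC and by -0.02 ± 0.12 in SSM minus SSS. Sst, the neuropeptide somatostatin of a class of interneurons, averaged 11.09 ± 0.06 in CC, 10.82 ± 0.22 in MSM and 11.23 ± 0.04 in SSM. Tac1, also among the striatum markers, averaged 7.42 ± 1.30 in SSM and 6.04 ± 0.08 in SSS. On SSM replicate 1 Tac1 was 8.91, against 6.64 and 6.69 on the other SSM arrays. Srf, the factor that binds the CArG box, averaged 7.56 ± 0.23 in MSM and 7.72 to 7.89 in the other 4 groups. Its MSM values were 7.67, 7.72 and, on MSM replicate 3, 7.30. Rasgrp1, an activator of Ras, averaged 9.86 ± 1.14 in MSM and 10.39 to 10.50 elsewhere, so that its spread within MSM was larger than any difference between groups. Its MSM values were 10.57, 10.46 and, on MSM replicate 3, 8.55.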

How the data were processed

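Total RNA was read on 1-colour microarrays by the submitters' core facility, per the labels' protocols. The authors deposited log2 intensities of 35557 probe sets, made with RMA (background correction, quantile normalization and probe summary) per the submitters' processing notes. The version of RMA is stated in no source used here. All 15 columns matched a sample and 0 were left out.

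The platform annotation gave 21789 probe sets 1 gene symbol, 1621 several, and left 12147 unnamed. Single-symbol probe sets gave 19938 genes, and no filter or further normalization preceded the tests. Having 3 arrays per group limits the precision, and the SE of a difference was 0.08 for the median gene.

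Groups came from the treatment labels; replicate numbers follow the order of deposit and pair nothing. Each gene was fitted in limma 3.58.1 (R 4.3.3; lmFit on all 15 arrays with group means, eBayes, 10 residual and 4.61 prior degrees of freedom), two-sided, with Benjamini-Hochberg adjustment over 19938 genes and a threshold of 0.05, in 12 contrasts and an F-test. Correlations were tested in Python 3.11.15 with 100000 permutations, or all 7776 within groups (864 without SSM replicate 1 and MSM replicate 3). Both were tested on simulated data. Alternatives were quantile normalization, median centring, the brighter 9963 genes, the mean of a gene's probe sets, array weights, the groups of a comparison alone, the SS or H number in the sample titles as a block, and leaving arrays out. Named were the members, up to 4 genes of each activity list with the smallest F-test p, and the genes most like the members, passing over small RNAs, RIKEN clones, predicted genes and vomeronasal or olfactory receptors. The members, lists and alternatives were chosen with earlier results of these data known.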

Additional observations from a re-analysis of the deposited data

How the results depend on the processing

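The count of members past the adjusted threshold was 0 in each of the 323 other fits of a comparison, and the smallest adjusted p of a member in any was 0.168. The 43 differences followed were those given in the text and those with an unadjusted p under 0.05, with groups apart, or highest or lowest in a comparison. Of these, 11 changed sign under an alternative other than leaving out 1 array. Without SSM replicate 1 and MSM replicate 3, MSM minus MSS of Egr1 was 0.078, SSM minus MSM was -0.12 for Egr1 and 0.03 for Fos, SSM minus SSS was -0.025 for Egr1 and 0.0021 for Fosb, and the interaction was -0.10 for Egr1 and 0.03 for Fos. With median centring added, an alternative chosen after seeing the data, Egr1 had 0.056 in MSM minus MSS, -0.18 in SSM minus MSM, -0.10 in SSM minus SSS and -0.16 in the interaction, Arc had -0.036 in SSM minus MSM and -0.0019 in the interaction, and the morphine average of Npas4 was -0.006. With array weights that average was -0.035 and the treated average minus CC of Fos -0.030. Without the 3 arrays low in choroid plexus markers Fos had 0.044 in the interaction and -0.0066 in the treated average, and Npas4 had 0.092 in MSM minus MSS and Arc -0.062 in the treated average without turning. Leaving out 1 array turned 10 differences, whose ranges were -0.015 to 0.15 for Fos in MSM minus CC, -0.36 to 0.078 for Egr1 and -0.020 to 0.083 for Npas4 in MSM minus MSS, -0.23 to 0.017 for Npas4 in SSM minus CC, -0.28 to 0.035 for Fos in SSM minus MSM, -0.025 to 0.32 for Egr1 and -0.20 to 0.0021 for Fosb in SSM minus SSS, -0.28 to 0.030 for Fos in the interaction, and -0.054 to 0.0010 for Arc and -0.076 to 0.091 for Fos in the treated average; Egr1 ranged from 0.081 to 0.52 in SSM minus MSM and from 0.095 to 0.54 in the interaction without turning. The cause was not tested.

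The count of 10 correlated pairs was 0 for deviations from group means and 0 without SSM replicate 1 and MSM replicate 3. It was 0 for both together, added after seeing the data, where 864 permutations were too few for a single pair to pass by itself. When 1 array was left out the count was from 0 to 11. Quantile normalization gave 14 pairs by r and 4 by rho, with 35 of the 45 pairs above 0 and a median r of 0.33.

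Over all genes, the 2 calls of the severity average became 39 with quantile normalization, 17 with median centring, 43 with array weights, 4 with the mean of probe sets and 13 with centring and without the 2 arrays; leaving out SSS replicate 3 gave 17 and SSM replicate 3 gave 5. The SS number as a fixed block gave 40 calls instead of 0 in SSM minus SSS, where only SSM replicate 1 and SSS replicate 3 share a number; leaving out SSS replicate 1 gave 8 instead of 0 in SSM minus MSM. No member was among these. The 2 calls of the severity average became 0 without the 3 arrays low in choroid plexus markers.

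The titles hold an H number of unstated meaning; MSM and CC share 3 of them, MSM and MSS share none and SSM and SSS share none. With that number as a replicate block in MSM and CC alone, added after seeing the data, 0 members and 0 genes were called in MSM minus CC, as without it, and 8 members were lower with a median of -0.10. Deviations from the group means correlated at -0.39, -0.07 and -0.16 over genes between arrays of one number, so it was not taken to pair the arrays.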
